A study of Mus musculus with 180 samples.

Results

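The genes described here are 10 members of the tumor necrosis factor (TNF) and TNF receptor superfamilies, taken from the deposited table by their gene symbols: the ligand genes *Tnf*, *Lta*, *Ltb*, *Tnfsf9* and *Tnfsf15* and the receptor genes *Tnfrsf1a*, *Tnfrsf1b*, *Tnfrsf9*, *Cd40* and *Fas*. They are 10 of the 45070 genes in the table, and the rule that selects them reads the symbol and no measured value. The cells were wild type bone marrow-derived macrophages (BMDMs), cultured from the bone marrow of male C57BL/6 mice, and all of them, controls included, were stimulated with LPS at 10 ng/ml for 2 h, so the table holds no unstimulated reference. A clinical kinase inhibitor (CKI; 58 in all, 3 samples each) or the vehicle DMSO (6 samples, labelled as 2 sets of 3) had been added 1 h earlier. Each CKI was given at a single concentration set by its affinity for the kinase it was meant to inhibit in this study, which is not always the target it is known for, so concentrations were not matched between CKIs, and the comparison asked of every gene is whether its mRNA level under a CKI differed from that in DMSO.

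TNF superfamily ligands are mostly trimeric membrane proteins that are active at the cell surface or after shedding, and their receptors signal through adaptor proteins of the TRAF and death domain families to NF-kB, to MAP kinases or to cell death. In macrophages, *Tnf* is among the first genes induced by LPS, and its mRNA is short-lived because AU-rich elements in its 3′ UTR are bound by decay factors such as tristetraprolin, the product of *Zfp36*. Cd40 and the 2 TNF receptors are the sensors through which macrophages respond to T cells and to TNF itself.

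The sequences below are shown because promoters and 3′ UTRs can take part in the control of transcription and of mRNA decay. The densest AU-rich stretch of the *Tnf* 3′ UTR lies in exon 4 of 4 of transcript Tnf-201, at chr17:35199679-35199708 on the minus strand (GRCm38, GENCODE), and holds 5 copies of ATTTA within 30 bases, some of which overlap, in capitals:
Tnf AU-rich element: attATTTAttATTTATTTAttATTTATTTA
The 764-base 3′ UTR of *Tnf* held 5 copies of the AU-rich nonamer TTATTTATT, read on the transcript strand and with overlaps counted. As many copies were found in 39 of 21020 protein-coding genes with a 3′ UTR (0.186%), each represented by its longest coding transcript, and at least 1 copy in 7.57% of them. *Lta* held 1 copy, and the nonamer was not in the 3′ UTRs of the other 8 members.

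Of the 10 members, 8 matched the RefSeq promoter table (GRCm38.p6), of which the 250 bases before each start site were searched on both strands. The windows printed are those of the 3 members with a window that differed from DMSO with Midostaurin. *Cd40* and *Tnfsf9* had no window. Capitals mark matches to the kappa B consensus, the AP-1 motif TGANTCA, the STAT-type GAS motif TTCNNNGAA and the TATA box TATAAA:
Tnf, chr17:35202008-35202257, minus strand: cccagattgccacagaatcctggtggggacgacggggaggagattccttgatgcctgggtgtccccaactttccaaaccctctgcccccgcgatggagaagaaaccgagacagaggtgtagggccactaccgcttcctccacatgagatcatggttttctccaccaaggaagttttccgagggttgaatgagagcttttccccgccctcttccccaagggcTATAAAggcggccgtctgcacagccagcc
Tnfsf15, chr4:63745060-63745309, minus strand: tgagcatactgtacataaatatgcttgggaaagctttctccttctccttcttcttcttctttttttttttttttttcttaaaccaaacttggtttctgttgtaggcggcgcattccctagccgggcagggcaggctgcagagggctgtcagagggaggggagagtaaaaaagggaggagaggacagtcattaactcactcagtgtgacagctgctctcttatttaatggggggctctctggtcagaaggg
Tnfrsf9, chr4:150927749-150927998, plus strand: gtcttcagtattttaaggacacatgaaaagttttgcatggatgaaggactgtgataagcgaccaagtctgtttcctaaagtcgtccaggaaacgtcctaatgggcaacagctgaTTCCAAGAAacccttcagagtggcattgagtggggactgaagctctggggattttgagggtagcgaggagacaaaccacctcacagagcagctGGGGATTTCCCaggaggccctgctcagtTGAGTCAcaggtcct
The *Tnf* window held a TATA box that begins 29 bases before the start site and no match to the other 3 motifs, and the *Tnfsf15* window held none of the 4. The downstream of 2 *Tnfrsf9* start sites had 2 kappa B matches that overlap each other, an AP-1 match 15 bases before the start and a GAS match, whereas the upstream *Tnfrsf9* window held none. Among the other members, kappa B matched in *Ltb*, AP-1 in *Fas*, and GAS in *Lta*, *Ltb*, *Tnfrsf1a*, *Tnfrsf1b* and *Fas*. Over all 32851 windows of the table, 7.25% held a kappa B match, 6.75% AP-1, 7.02% GAS and 12.4% a TATA box. A match is a run of letters and not a site shown to be bound, and sequence beyond the 250 bases was not searched.

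In DMSO the members spanned a wide range of levels. Values are given as the authors' normalised read counts, and levels of different genes are compared only after division by cDNA length in kb. *Tnf* was the highest ligand gene, at 7751 ± 829 (SD, n = 6) or 4689 per kb, and *Tnfsf9*, which encodes the ligand of the receptor 4-1BB, followed at 2620 ± 834 or 2130 per kb. The other ligands were far lower, *Tnfsf15* (the ligand TL1A) at 235 ± 63.4 or 40.7 per kb, *Ltb* (lymphotoxin beta) at 22.7 ± 6.47 or 20.7 per kb and *Lta* (lymphotoxin alpha) at 3.67 ± 2.50 or 2.65 per kb. Among receptors the order per kb was *Tnfrsf1b* (TNFR2, 4022 per kb), *Cd40* (2767), *Tnfrsf1a* (TNFR1, 889), *Fas* (the death receptor, 246) and *Tnfrsf9* (4-1BB, 12.5). On this scale single samples of *Tnfrsf1b* overlapped with *Tnf*, those of *Cd40* with *Tnfsf9*, and those of *Ltb* with *Tnfsf15* and *Tnfrsf9*.

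**Figure D1:**
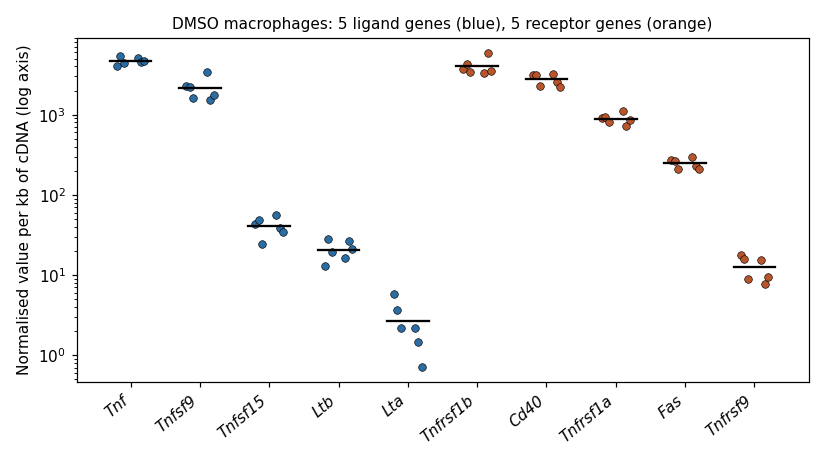
Normalised value per kb of cDNA (log axis) of the 10 members in the 6 DMSO samples, with the 2 DMSO sets side by side as points and the mean as a line. Levels run from 2.65 per kb for *Lta* to 4689 per kb for *Tnf*, and *Tnfrsf1b* is the highest receptor gene.

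The labelled cell type was checked against marker genes. The 8 macrophage markers summed to 84369 to 189755 in the DMSO samples and to 73186 to 215734 in the CKI samples. T and NK cell markers summed to at most 175 in any sample, and B cell markers to at most 48. Among the T and NK cell markers *Cd3d*, *Cd3e* and *Cd3g* read 3 or less. *Lck* read 22 to 99 in DMSO and up to 141 with CKIs, and *Cd4* up to 27. Neutrophil and progenitor markers summed to 273 to 952 in DMSO and 230 to 2134 with CKIs, dendritic cell markers to 61 to 93 and 35 to 162, and fibroblast markers to 19 to 147 and 4 to 222. Total values per sample lay between 9477340 and 12273349, and mitochondrial transcripts made up 0.760% to 1.95% in DMSO and 0.525% to 4.47% with CKIs. Both DMSO sets were used together: between them limma called 0 of 12714 genes, with 310 at an unadjusted p under 0.05, and none of the 9 tested members was among the 310.

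Of the 10 members, 9 had a mean of 10 or more across the 180 samples and were tested, and *Lta* did not reach it. A gene was called higher or lower where the adjusted p of limma's moderated test, adjusted over the 12714 genes tested in that CKI, was under 0.05. Over the 58 CKIs, 12 of 522 tests of a member were called higher (2.3%, against 2.52% of all genes tested) and 12 lower (2.3%, against 1.65% of all genes). In either direction these are 24 calls (4.60%, against 4.18%), a share near that of all genes. Under scaling by the median of ratios the members were called higher 10 times and lower 14 times, against 1.65% and 2.40% of all genes. The 24 calls fell on 7 members and on 11 CKIs, and in the other 47 CKIs no member was called; 75 of the 522 tests had an unadjusted p under 0.05. All comparisons share the same 6 DMSO samples, so a low or high DMSO sample enters each of them. In RNA from whole cultures, fewer cells expressing a gene and less mRNA per cell cannot be told apart.

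**Figure D2:**
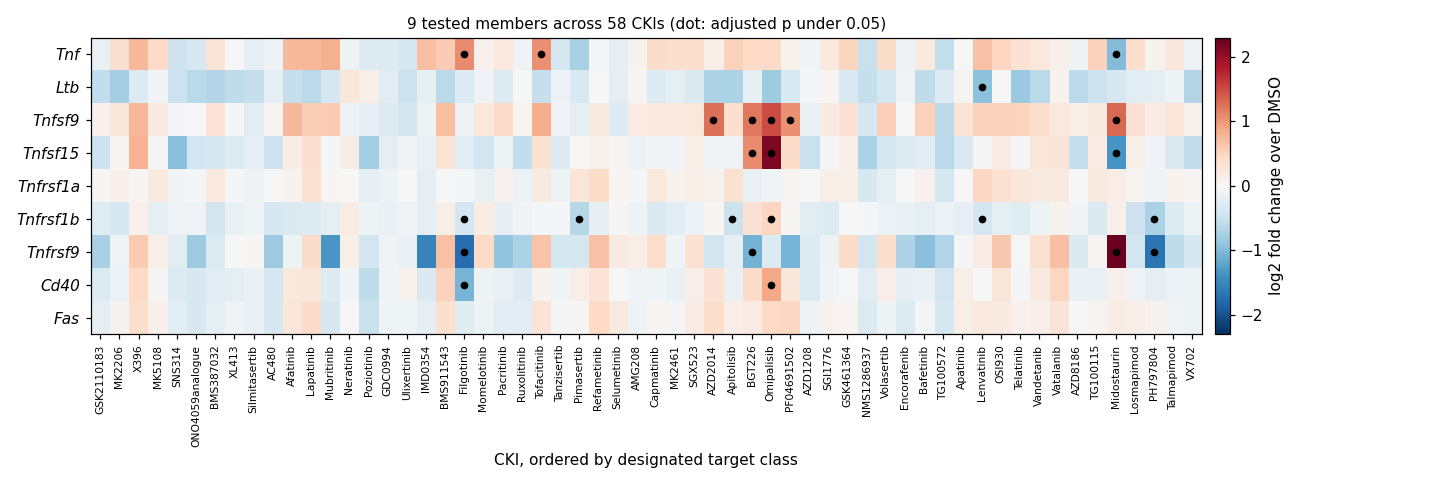
The log2 fold change over DMSO (colour) of the 9 tested members in the 58 CKIs, which are ordered by designated target class; a dot marks an adjusted p under 0.05. The 24 dots lie in 11 columns, and *Fas* and *Tnfrsf1a* have none.

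Among the ligands, *Tnf*, the founding cytokine of the family, was called higher with the JAK inhibitors Filgotinib and Tofacitinib and lower with the multi-kinase inhibitor Midostaurin. In DMSO it read 6668, 8932, 7228, 8483, 7518 and 7676. With Filgotinib it read 16843, 21124 and 12369, all above every DMSO sample (log2 fold change 1.09 ± 0.31 SE, adjusted p = 0.00577; 20.7% of all genes were called with Filgotinib). With Tofacitinib it read 13424, 18956 and 16354, again all above DMSO (1.06 ± 0.31, adjusted p = 0.0254; 9.88% of all genes). With Midostaurin it read 3171, 3320 and 5574, all below DMSO (−0.99 ± 0.31, adjusted p = 0.0399; 4.56% of all genes). The other 4 JAK inhibitors gave *Tnf* log2 fold changes of −0.08 (Ruxolitinib), 0.10 (Momelotinib), 0.23 (Pacritinib) and 0.59 (BMS911543), of which none passed the test. The 3 p-values rest on few samples. The Filgotinib call was lost without the samples of replicate 1 (adjusted p = 0.0529) or 2 (0.117), the Tofacitinib call without replicate 2 (0.404) or 3 (0.0855) and the Midostaurin call without replicate 1 (0.218) or 2 (0.370). Mitochondrial transcripts made up 1.35% to 4.01% in the Tofacitinib samples, and with this share and the replicate number in the fit its log2 fold change was 0.58 (adjusted p = 0.255).

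Across all conditions the mean of *Tnf* ran from 4022 with Midostaurin to 16779 with Filgotinib, a 4.17-fold range, with DMSO at rank 24 of 59 from the bottom. In the order of the 59 means none of the 58 steps between neighbours exceeded the spread between replicates (0.44 on the log2 scale). With so many means in a 4.17-fold range most steps must be small, so this cannot show whether the CKIs form groups. No inhibitor of the MAP kinase cascade passed the test in the fit of all groups: the MEK inhibitor Pimasertib read 3733, 5217 and 5083 (−0.74 ± 0.31, adjusted p = 0.0686), the other MEK inhibitors Selumetinib and Refametinib gave −0.20 and −0.03, the ERK inhibitors Ulixertinib and GDC0994 gave −0.38 and −0.32 and the RAF inhibitor Encorafenib −0.14. Other settings also added calls of *Tnf*. It was called lower in 2 CKIs under scaling by the median of ratios and in fits of only the groups compared. The count was also 2 with the mitochondrial share and the replicate number in the fit. In fits of only the groups compared *Tnf* was called higher in 5 CKIs. The 4 p38 inhibitors lay between −0.14 (VX702) and 0.38 (Losmapimod). The 6 inhibitors designated against ERBB kinases ran from −0.30 (Poziotinib) to 0.82 (Mubritinib, adjusted p = 0.173) with a median of 0.32, and none was called, Lapatinib (0.76) having the lowest adjusted p (0.0569).

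*Tnfsf9* was the member called higher in the most CKIs, 5 of 58, and was lower in 0; 10.6% of all tested genes were called higher in as many. Of the 5 CKIs, 4 are PI3K/mTOR inhibitors. In DMSO it read 2790, 2755, 1989, 4131, 1884 and 2168. With Omipalisib it read 7251, 9239 and 5410 (1.5 ± 0.31, adjusted p = 9.28e-05; 25.7% of all genes were called). With Midostaurin it read 7140, 5283 and 6764 (1.33 ± 0.31, adjusted p = 0.00284), the opposite direction from *Tnf* in the same samples. With AZD2014 it read 7564, 4633 and 6444 (1.27 ± 0.31, adjusted p = 0.00117; 19.6% of all genes). The other 2 calls were BGT226 at 1.20 (adjusted p = 0.0014; 30.4% of all genes) and PF04691502 at 1.06 (adjusted p = 0.0154; 13.1% of all genes), and in all 5 CKIs every sample lay above every DMSO sample. The fifth PI3K/mTOR inhibitor, Apitolisib, read 4097, 2685 and 3254 (0.39, adjusted p = 0.397), within the DMSO range. The AKT inhibitors GSK2110183 and MK2206 gave 0.10 and 0.28, with neither called. The AZD2014 call was lost without replicate 3 (adjusted p = 0.0557), the Midostaurin call without replicate 2 (0.0525) or 3 (0.150) and the PF04691502 call without replicate 2 (0.135) or 3 (0.0840), whereas those with Omipalisib and BGT226 held without each replicate in turn.

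*Tnfsf15* had the widest range of the member ligands that were tested, from a mean of 88.7 with Midostaurin to 1022 with Omipalisib (11.5-fold). In DMSO it read 251, 277, 142, 323, 222 and 196. With Omipalisib it read 969, 864 and 1232, all above DMSO (2.15 ± 0.35, adjusted p = 2.7e-07), and the step of 1.07 from the next CKI, BGT226, was the only one of 58 steps in the order above the replicate spread of 0.50. With BGT226 it read 665, 326 and 517 (1.08 ± 0.35, adjusted p = 0.0103), the lowest sample just above the highest DMSO sample. With Midostaurin it read 102, 73 and 91, all below DMSO (−1.36 ± 0.35, adjusted p = 0.00616). The other 3 PI3K/mTOR inhibitors lay at −0.08 (AZD2014), −0.07 (Apitolisib) and 0.43 (PF04691502). *Tnfsf15* lies on the minus strand of chromosome 4 (63724600 to 63745059, mm10), and the non-coding gene *Gm42294* overlaps it on the plus strand over 20460 bases. *Gm42294* moved with it, at a mean of 25.3 in DMSO, 125 with Omipalisib, 55 with BGT226 and 8.67 with Midostaurin. This overlap is of whole gene spans with their introns, and the overlap of exons was not examined. Because the libraries do not mark strand, reads from any shared exonic bases cannot be assigned to either gene. The BGT226 call was lost without replicate 1 (adjusted p = 0.0609) or 3 (0.201) and the Midostaurin call without replicate 1 (0.0631) or 2 (0.136). *Tnfsf9* is overlapped over 558 bases by *Gm11110* on the other strand, which read between 7 and 59 in all samples.

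The lymphotoxin genes were close to the limit of what this depth could show. *Ltb* read 14, 31, 21, 18, 29 and 23 in DMSO and 14, 13 and 7 with Lenvatinib, a VEGFR inhibitor, where the groups touched at 14 (−0.95 ± 0.33, adjusted p = 0.0454; 12.2% of all genes were called with Lenvatinib). This call was lost without replicate 2 (adjusted p = 0.247) or 3 (0.457). All Lenvatinib samples had a mitochondrial share (2.07% to 3.70%) above that of every DMSO sample, and with this share and the replicate number in the fit the log2 fold change of *Ltb* was −0.78 (adjusted p = 0.197). Its mean was below that of DMSO in 50 of 58 CKIs, with a median log2 fold change of −0.34, but these comparisons share the DMSO samples, and Omipalisib (13, 13 and 10) did not pass the test (adjusted p = 0.0504). It passed with the replicate number as a block in the limma fit (adjusted p = 0.0120). *Lta* read 8, 5, 3, 3, 2 and 1 over the DMSO samples and at most 14 in any sample. When genes were not filtered, limma called it in 0 of 58 CKIs, with 8 at an unadjusted p under 0.05 and the smallest adjusted p, 0.137, with Omipalisib.

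Of the receptors, *Tnfrsf1b*, which encodes TNFR2, was called lower in 5 CKIs and higher in 1, and 5.43% of all tested genes were called lower in as many. In DMSO it read 18282, 21262, 16759, 16460, 28520 and 17272, so that a single sample of the second set stood well above the others. With the p38 inhibitor PH797804 it read 11772, 13103 and 10395 (−0.73 ± 0.14, adjusted p = 0.000172; 1.98% of all genes were called). With Pimasertib it read 13492, 12927 and 10548 (−0.66 ± 0.14, adjusted p = 0.000538; 21.7% of all genes). With Apitolisib it read 14553, 14149 and 12810 (−0.49 ± 0.14, adjusted p = 0.0184; 15.9% of all genes). In these 3 CKIs every sample was below every DMSO sample. The smaller decreases with Lenvatinib (−0.40, adjusted p = 0.0441) and Filgotinib (−0.38, adjusted p = 0.0380) and the increase with Omipalisib (0.49 ± 0.14, adjusted p = 0.00461; 26174, 23785 and 32149) were called as well, and the Lenvatinib and Omipalisib samples overlapped DMSO. Within the p38 inhibitors, Losmapimod read 13531, 18020 and 11068 (−0.48, adjusted p = 0.224), Talmapimod gave −0.31 and VX702 −0.12, and the MEK inhibitors Refametinib and Selumetinib gave −0.19 and 0.03.

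The *Tnfrsf1b* changes were small, and their size depended on the scaling. In 18 of 58 CKIs scaling by the median of ratios moved the median log2 fold change of all genes by over 0.1, by at most −0.20. Relative to the median of all genes in the same CKI, *Tnfrsf1b* changed by −0.81 with PH797804, −0.78 with Pimasertib, −0.60 with Apitolisib, −0.58 with Lenvatinib, −0.34 with Filgotinib and 0.37 with Omipalisib, and none of the 24 member calls changed sign under that scaling. It ended 3 of the 24 calls, *Tnfrsf1b* with Filgotinib (adjusted p = 0.112) and with Omipalisib (0.0604) and *Tnf* with Tofacitinib (0.0519). The calls with PH797804 and Pimasertib held without each replicate in turn. That with Apitolisib was lost without replicate 2 (adjusted p = 0.210) or 3 (0.117), Filgotinib without 1 (0.0848) or 2 (0.720), Lenvatinib without 2 (0.592) or 3 (0.321) and Omipalisib without 1 (0.101) or 3 (0.278). Mitochondrial transcripts made up 3.24% to 4.29% with Pimasertib, 1.49% to 4.04% with Apitolisib and 2.07% to 3.70% with Lenvatinib, and the neutrophil and progenitor markers summed to 1293 to 1486, 818 to 1308 and 700 to 1385. With the mitochondrial share and the replicate number in the fit the log2 fold changes were −0.43 (adjusted p = 0.0724), −0.33 (0.226) and −0.25 (0.332), that with Filgotinib was −0.32 (0.0527) and that with PH797804 −0.72 (2.19e-05). In fits of DMSO and 1 CKI alone, the *Tnfrsf1b* call with Pimasertib held (adjusted p = 0.0394). Those with PH797804 (0.132), Apitolisib (0.0962), Filgotinib (0.175), Lenvatinib (0.183) and Omipalisib (0.0904) were lost. The part of the marker levels in these results was not tested.

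*Tnfrsf9*, which encodes the costimulatory receptor 4-1BB and is the partner of *Tnfsf9*, was scarce in DMSO at 40, 35, 20, 34, 17 and 21. With Midostaurin it read 118, 111 and 171, all above DMSO and the largest rise of any tested member in any CKI (2.26 ± 0.44, adjusted p = 0.000111). Its distance of 1.56 from the next condition, Vatalanib, was the only one of 58 steps above the replicate spread of 0.63. Both the receptor and its ligand were higher with Midostaurin. With Filgotinib it read 7, 3 and 16 (−1.75 ± 0.44, adjusted p = 0.00159) and with PH797804 7, 5 and 12 (−1.68 ± 0.44, adjusted p = 0.0164), all below DMSO. With BGT226 it read 17, 6 and 16, touching the lowest DMSO sample at 17 (−1.09 ± 0.44, adjusted p = 0.0465). Among the JAK inhibitors *Tnfrsf9* ran from −1.75 with Filgotinib to 0.66 with Tofacitinib and 0.67 with BMS911543, the last 2 not called. The Midostaurin call held without each replicate in turn. That with Filgotinib was lost without replicate 2 (adjusted p = 0.103), PH797804 without 1 (0.264) or 2 (0.235) and BGT226 without 1 (0.127), 2 (0.340) or 3 (0.0505).

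*Cd40*, the receptor through which T cells license macrophages, was called in a pair of CKIs in opposite directions. In DMSO it read 5602, 5652, 4030, 5800, 4598 and 3941. With Filgotinib it read 2387, 2237 and 2341, all far below DMSO (−1.07 ± 0.22, adjusted p = 7.79e-05). With Omipalisib it read 8266, 8196 and 10610, all above DMSO (0.88 ± 0.22, adjusted p = 0.00105). The Filgotinib call held under every alternative, and the Omipalisib call was lost without replicate 3 (adjusted p = 0.124). The other 4 PI3K/mTOR inhibitors ran from −0.16 (Apitolisib) to 0.43 (BGT226), with none called.

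*Tnfrsf1a*, the receptor for soluble TNF with a death domain, and *Fas*, the archetypal death receptor, were called in 0 of 58 CKIs by limma, with 3 CKIs each at an unadjusted p under 0.05. *Tnfrsf1a* had the narrowest range of all members, from a mean of 1445 with TG100572 to 2633 with Lenvatinib (1.82-fold). Its largest difference was with Lenvatinib, at 2933, 2520 and 2447 against 1553 to 2417 in DMSO (0.47 ± 0.19, adjusted p = 0.0781). That difference passed with the replicate number as a block in the limma fit (adjusted p = 0.0297). *Fas* ran from 308 with Poziotinib (328, 288 and 309; −0.51 ± 0.24, adjusted p = 0.853) to 619 with PF04691502 (730, 487 and 641; 0.47 ± 0.24, adjusted p = 0.160), against 374 to 541 in DMSO. That the tests without this block missed the threshold does not show that the levels were equal.

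**Figure D3:**
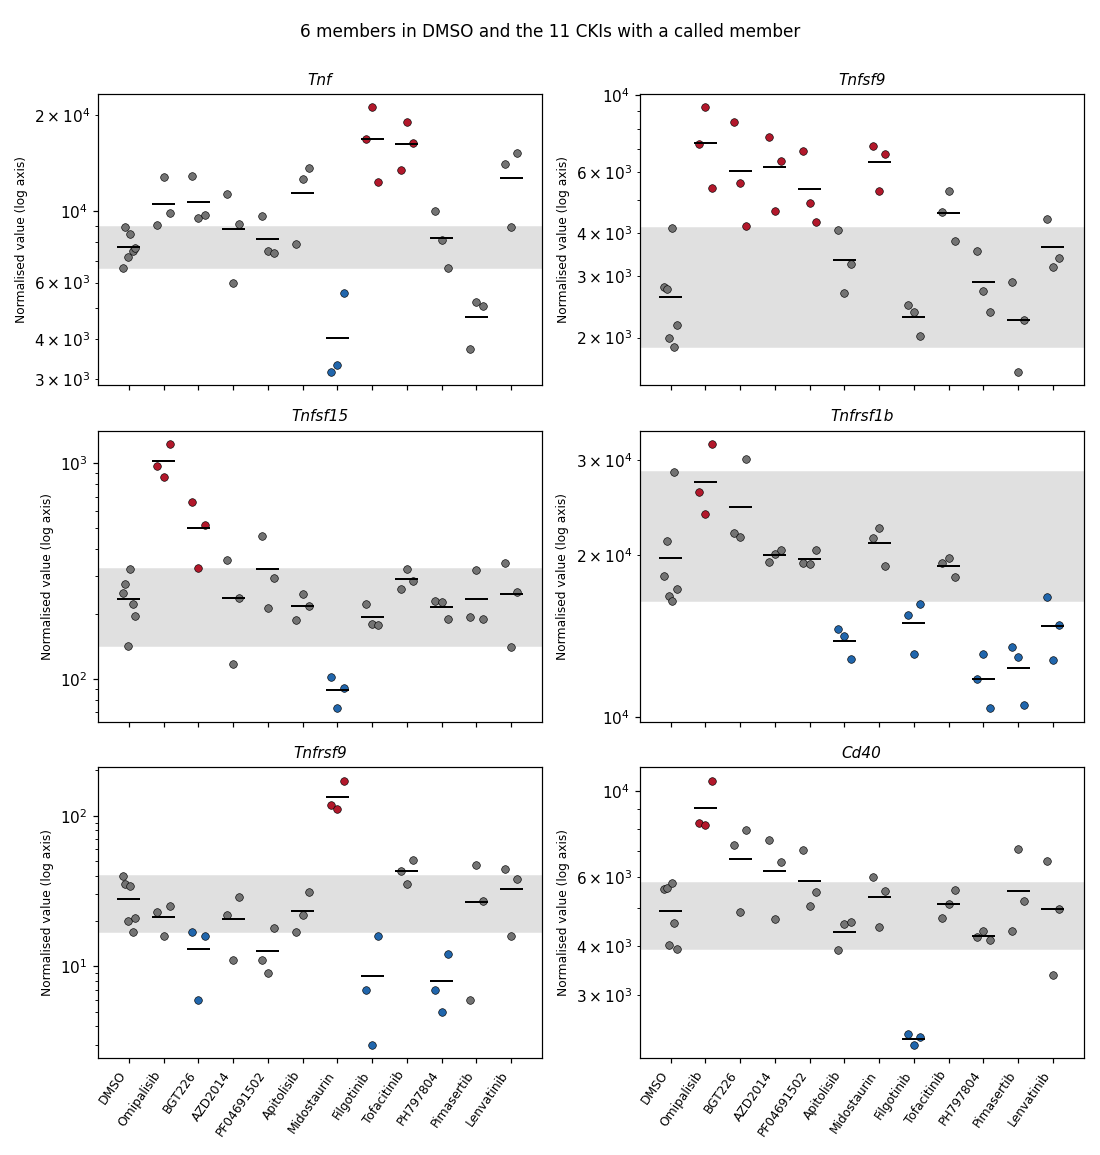
Normalised value (log axis) of 6 members in each DMSO sample and in each sample of the 11 CKIs with a called member. Points in red or blue mark a called rise or fall, the line is the mean and the grey band the range of the 6 DMSO samples; with Midostaurin *Tnfrsf9* and *Tnfsf9* stand above the band and *Tnf* and *Tnfsf15* below it.

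By CKI, 3 of the 58 had 4 of 9 members called. Midostaurin lowered the cytokine genes *Tnf* and *Tnfsf15* and raised *Tnfsf9* and *Tnfrsf9*, with 580 of 12714 genes called. Filgotinib raised *Tnf* and lowered *Cd40*, *Tnfrsf9* and *Tnfrsf1b*, with 2637 genes called. Omipalisib raised *Tnfsf15*, *Tnfsf9*, *Cd40* and *Tnfrsf1b* and lowered none, with 3264 genes called; its median log2 fold change over the 9 tested members was 0.47, against 0.12 over all genes. The corresponding medians were 0.12 against 0.11 with Midostaurin and −0.27 against −0.04 with Filgotinib. BGT226 had 3 members called, PH797804 and Lenvatinib 2 each and PF04691502, Pimasertib, Apitolisib, AZD2014 and Tofacitinib 1 each. The shares of all genes called were 30.4% with BGT226, 1.98% with PH797804, 12.2% with Lenvatinib and 13.1% with PF04691502. They were 21.7% with Pimasertib, 15.9% with Apitolisib, 19.6% with AZD2014 and 9.88% with Tofacitinib. No test was made between CKIs, which were given at different concentrations.

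The rest of the superfamily had 7 of 13 other ligand genes and 12 of 23 other receptor genes at a testable level. The other ligands were called higher 12 times in 406 tests (2.96%) and lower 4 times (0.985%), against 2.52% and 1.65% of all genes. The higher calls were 6 without replicate 2 (0.648% of all genes) and the lower calls 7 without replicate 3 (1.51% of all genes). *Tnfsf14*, which encodes LIGHT, read 123 ± 35.3 in DMSO (SD, n = 6) and was higher in 7 CKIs, with 988, 1066 and 818 under BGT226 (3.0 ± 0.25, adjusted p = 2.73e-20), 656, 880 and 492 under Omipalisib (2.47) and 521, 410 and 344 under Midostaurin (1.82, adjusted p = 1.82e-08). *Tnfsf8* (CD30 ligand) read 3, 4 and 8 with Midostaurin (−2.09 ± 0.35, adjusted p = 7e-06) and 60, 95 and 89 with Omipalisib (1.75, adjusted p = 4.97e-05) against 23.7 ± 6.56 in DMSO, the same pair of directions as *Tnfsf15*. *Tnfsf10* (TRAIL) fell from 357 ± 175 in DMSO to 84, 37 and 48 with Filgotinib (−2.53 ± 0.47, adjusted p = 1.53e-05) and to 48, 54 and 71 with Midostaurin (−2.43, adjusted p = 0.000111). *Tnfsf12* (TWEAK) rose with BGT226 (1.24, adjusted p = 1.66e-10) and Omipalisib (0.53, adjusted p = 0.00892). *Cd40lg*, *Fasl* and *Cd70*, ligands of lymphocytes, were at a mean of 2.67 or less in DMSO and were not tested.

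The other receptor genes were called higher 22 times in 696 tests (3.16%) and lower 17 times (2.44%), against 2.52% and 1.65% of all genes. *Tnfrsf26*, which lies with *Tnfrsf23* in a cluster of decoy receptor genes, was higher in 9 CKIs, the most of any superfamily gene tested, with 2161, 1822 and 1206 under BGT226 (3.08 ± 0.26, adjusted p = 3.3e-20) and 1535, 1568 and 1014 under Omipalisib (2.76) against 211 ± 76.2 in DMSO. *Tnfrsf23* was higher in 7 CKIs by at most 1.02 (BGT226). *Ltbr*, the lymphotoxin beta receptor, was lower in 7 CKIs, at 209, 273 and 284 with AZD2014 (−0.84 ± 0.17, adjusted p = 6.84e-05) against 458 ± 61.2 in DMSO. *Tnfrsf21* (death receptor 6) was lower in 5 CKIs, with 46, 98 and 42 under BMS911543 (−2.05 ± 0.31, adjusted p = 1.62e-07) and 51, 61 and 62 under AZD2014 (−2.04, adjusted p = 5.31e-08) against 247 ± 64.7. Under scaling by the median of ratios these receptor genes were called higher 11 times and lower 21 times, and the share of all genes moved the same way, to 1.65% and 2.40%. Without replicate 2 there were 10 higher and 10 lower calls (0.648% and 0.512% of all genes). Without replicate 3 there were 10 higher and 11 lower (0.971% and 1.51% of all genes).

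**Figure D4:**
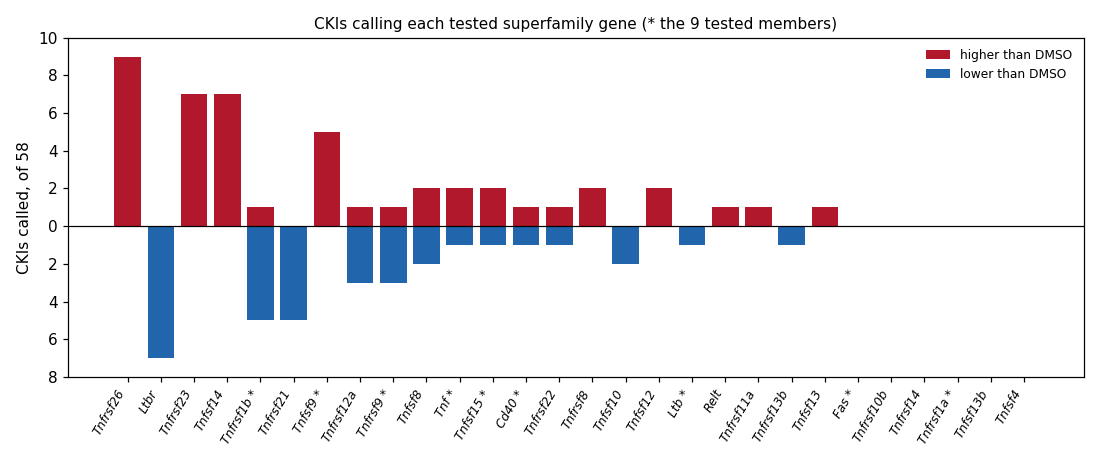
Number of the 58 CKIs that called each of the 28 tested superfamily genes higher (bars up) or lower (bars down) than DMSO; an asterisk marks the 9 tested members. *Tnfrsf26* has 9 calls, all higher, *Ltbr* 7, all lower, and *Tnfsf9* 5, all higher.

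Of the genes that carry the TNF receptor signal, all 28 were tested, and 49 of 1624 tests were called higher (3.02%) and 34 lower (2.09%), near the 2.52% and 1.65% of all genes. *Traf1*, an adaptor induced by NF-kB, was higher in 8 CKIs and most with BGT226 (4909, 3261 and 4372 against 1930 ± 315 in DMSO; 1.11 ± 0.20, adjusted p = 2.13e-06). *Tnfaip3*, which encodes the feedback inhibitor A20, was lower in 7 CKIs and higher in 1: it read 2813, 1911 and 2769 with the ERBB inhibitor Afatinib (−1.20 ± 0.17, adjusted p = 5.52e-08) and 8092, 8289 and 7312 with Omipalisib (0.48, adjusted p = 0.0297), against 5947 ± 2027. *Tnip1*, a partner of A20, was higher in 7 CKIs by at most 0.62 (Midostaurin) and *Otulin*, a deubiquitinase of linear chains, in 6 by at most 1.67 (BGT226). With Filgotinib 9 of the 28 genes were lower and 0 higher (median −0.35, against −0.04 over all genes; 14.6% of all genes were lower), and with Omipalisib 10 were higher and 0 lower (0.24, against 0.12; 17.5% of all genes were higher). With Midostaurin *Tnip1* and *Map3k14*, which encodes the NF-kB-inducing kinase, were the called genes of the 28, both higher. Under scaling by the median of ratios 28 calls were higher and 46 lower, as the split of all genes also turned over (1.65% and 2.40%). The higher calls were 17 without replicate 2 or 3 (0.648% and 0.971% of all genes), and the lower calls 8 without replicate 2 (0.512% of all genes).

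Of 12 genes that act on TNF mRNA, on its shedding or as TNF-induced proteins, 11 were tested, with 16 of 638 tests called higher (2.51%) and 12 lower (1.88%), near the 2.52% and 1.65% of all genes. The calls were 12 higher and 14 lower under scaling by the median of ratios (1.65% and 2.40% of all genes) and 7 in each direction without replicate 2 (0.648% and 0.512%). *Zfp36*, whose product binds the AU-rich element printed above, read 6064 ± 1594 in DMSO, 2536, 1985 and 1543 with PH797804 (−1.57 ± 0.21, adjusted p = 1.88e-08) and 2810, 2468 and 2628 with Afatinib (−1.16, adjusted p = 1.55e-05). It was higher with BGT226 (0.67, adjusted p = 0.00937) and Filgotinib (0.66, adjusted p = 0.0167). *Tnf* itself differed from DMSO by 0.08 ± 0.31 with PH797804 (10021, 8162 and 6645). With Filgotinib *Tnf* was called higher (1.09), as *Zfp36* was, and with Afatinib and BGT226 *Tnf* was not called. A link between these genes was not tested. The related *Zfp36l2* was higher in 7 CKIs, with 337, 282 and 176 under BGT226 against 18.8 ± 7.22 in DMSO (3.79 ± 0.35, adjusted p = 8.06e-18). *Zc3h12a* (Regnase-1, an RNase) was lower with Afatinib (−0.98, adjusted p = 1.17e-06) and higher with Midostaurin (0.78, adjusted p = 0.000258) and Tofacitinib (0.55). *Adam17*, the TNF-shedding protease, was higher with BGT226 (0.48, adjusted p = 9.51e-06) and lower with Afatinib (−0.51, adjusted p = 8.85e-06), and its cofactor *Rhbdf2* was lower with Pimasertib (−0.74), Apitolisib (−0.48) and Lenvatinib (−0.47).

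Over the 59 condition means the patterns of the members differed from each other. The most alike pair was *Cd40* and *Fas* (Pearson's r = 0.82 across 59 means on the log2 scale), followed by *Cd40* and *Tnfsf15* (0.68), and the least alike was the pair of TNF receptors, *Tnfrsf1a* and *Tnfrsf1b* (r = −0.36). Among all tested genes the nearest to *Tnf* were *Eya3* (0.70), *Ccl7* (0.68) and *Kin* (0.68), and the nearest to *Tnfsf9* were *Arg2* (0.83), *Dpep2* (0.83) and *Tnip1* (0.80). *Tnfsf15* was nearest to its overlapping gene *Gm42294* (0.94), then to *Nt5c3* and *Ttc9c*. *Tnfrsf9* was nearest to *Tle3* (0.82), *Adora3* (0.80) and *Tmigd3* (0.79), all of them highest with Midostaurin. *Cd40* was nearest to *Arl5c* (0.90) and *Slc2a6* (0.89), *Fas* to *Ebi3* (0.85) and *Il15* (0.83), *Tnfrsf1b* to *Sqstm1* (0.86) and *Pik3r5* (0.86), *Tnfrsf1a* to *C1qc* (0.84) and *Slc7a7* (0.84) and *Ltb* only weakly to *Eid2b* (0.53). The 59 means share the scaling, the library chemistry and any change of cell state, so these values describe likeness alone.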

How the data were processed

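Poly(A) RNA-seq libraries were made from BMDMs with SMART-seq2, which does not mark strand, in 3 independent replicates for each CKI. Per the methods and the labels, the authors aligned reads to mm10 with TopHat2 (2.1.1), counted exonic reads of RefSeq genes, scaled samples on genes of little variation, used DESeq2 for their own tests and deposited the scaled read counts as a score rounded to whole numbers. Since these are no longer raw counts, no count model was run, unlike what the design had foreseen for raw counts. All 180 columns were matched to samples by name.

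The 12714 genes with a mean of at least 10 were tested on log2(value + 1), the scale of all fold changes, which understates changes of low genes, with limma (3.58.1, R 4.3.3) with a variance trend over all 59 groups, each CKI against 6 DMSO samples, with Benjamini-Hochberg adjustment. The script was tested on simulated data. Totals between 9477340 and 12273349 per sample leave low genes, such as *Ltb*, with a large counting error. The alternatives were pseudocounts of 0.5 and 10, other filters and scalings, each DMSO set, other fits and leaving out each replicate number. The members and lists were chosen with earlier results of these data known. Named were the members, for each up to 3 largest called rises and falls beyond all DMSO samples with full values, the 4 genes of each other list called in the most CKIs (ties in part) and the 3 genes most like each member. Other genes named, among them *Adam17* and the lymphocyte ligands, were chosen after their values were seen. No table of amino acid sequences was used. Python 3.11.15 with NumPy 2.4.6, pandas 2.3.3 and matplotlib 3.10.9 was used for the tables and plots.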

Additional observations from a re-analysis of the deposited data

How the results depend on the processing

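Leaving out the samples of 1 replicate number changed the 12 higher calls of members over 58 CKIs to between 7 and 11. The 12 lower calls came to between 3 and 10. There were 7 higher without replicate 3 (0.971% of all genes, against 2.52% with all samples) and 3 lower without replicate 2 (0.512%, against 1.65%). The lower calls were 7 without a filter (0.556% of all genes), 6 with DMSO set 1 alone (0.84%) and 7 with DMSO set 2 alone (1.20%). They were 6 in fits of only the groups compared (0.599%). Under the stricter rule of a log2 fold change of at least 1 there were 5 lower and 10 higher calls. No share of all genes is given for that rule, so these counts cannot be set against it. Where a share is given, calls of all genes also became fewer, and the cause was not tested. With the replicate number as a block there were 18 higher and 19 lower calls (against 4.60% and 3.08% of the tests of all genes), which held all 24 calls of the fit without it and 13 others: *Ltb* with AZD2014, Apitolisib, MK2206 and Omipalisib, *Tnf* with Lapatinib, *Tnfrsf1a* with Lenvatinib (0.47, adjusted p = 0.0297), *Tnfrsf1b* with BGT226 and MK2206, *Tnfrsf9* with IMD0354 and Mubritinib, and *Tnfsf9* with Afatinib, BMS911543 and Tofacitinib. The numbers were not taken as pairs, since same-numbered samples deviated together with a correlation over 0.1 in 144 of 174 pairs but in all 3 pairs of only 34 of 58 CKIs. The mean correlation was 0.31 for the same number. That for different numbers (−0.16) adds nothing to it, because deviations from a group mean cancel out over the replicates. Of 174 samples, 126 correlated best with their own number. The 24 calls therefore take no account of what same-numbered samples share. Of the 24 calls, 5 passed under every alternative fitted (*Cd40* with Filgotinib, *Tnfrsf9* with Midostaurin, *Tnfsf15* with Omipalisib and *Tnfsf9* with BGT226 and Omipalisib) and none changed direction; over all calls and alternatives, 260 values passed and 71 did not. Values of *Ltb*, *Tnfrsf9* and *Lta*, which read below 50 in DMSO, are limited by depth.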
